A study of Mus musculus with 12 samples.

Results

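Levels of 10 innate defence genes were read on 12 arrays of olfactory epithelium from mice whose right nostril had been sealed. The genes are the chitinase-like genes Chil1, Chil3 and Chil4, the iron-withholding genes Lcn2 and Ltf, the calprotectin genes S100a8 and S100a9, the lysozyme genes Lyz1 and Lyz2 and the lectin gene Reg3g. All 10 were found among the 19938 genes that have a probe set naming 1 gene, and each had exactly 1 such probe set. They were chosen by name as innate defence genes and selected on values that had been seen to differ widely between these arrays, so their spread is given here as a description without a test.

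Unilateral naris occlusion stops airflow through 1 nostril, which deprives the epithelium behind it of odorants, while the other side of the same nose stays exposed. The 4 groups were the closed side of H2be-KO mice, the open side of H2be-KO mice, the closed side of WT mice and the open side of WT mice, with 3 samples in each. No group came from an unoperated nose, so falls and rises on the closed side are relative to the open side. Which of the sides had moved was not tested. H2be encodes an olfactory variant of histone H2B, and in the H2be-KO line its coding sequence is replaced by a membrane-bound mCherry reporter throughout the animal. Surgery by electrocautery was done at 14 days of age, and 3 weeks passed before the tissue was taken. The labels place the mice at 5 weeks in their titles and at 6 months in an age field, and the surgery date and the interval match the titles. By its labels each sample pooled 2 mice, 1 female and 1 male. The study's own description of these arrays gives a larger number of animals for a sample, and which of them holds is not known. In either case no value belongs to a single animal. Nothing in the labels says whether the closed and the open sample that carry the same replicate number came from the same mice.

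The olfactory epithelium lines the upper nose, where neurons, their supporting cells and mucus glands meet inhaled microbes directly. Its defence rests largely on proteins secreted into the mucus by glands and epithelial cells, and on granule proteins carried in by neutrophils and macrophages. Chitinase-like proteins bind chitin but have lost the ability to cut it. Chil3 and Chil4, also called Ym1 and Ym2, are closely related rodent proteins known from macrophages and airway epithelium in type 2 inflammation. Lcn2 captures the siderophores with which bacteria collect iron, and Ltf binds free iron. S100a8 and S100a9 pair as calprotectin, which withholds zinc and manganese, lysozymes cut bacterial cell walls, and Reg3g kills Gram-positive bacteria.

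Several members are neighbours in the genome and copies of each other. In GRCm38.p6, Chil4 lies at chr3:106201491-106219479 and Chil3 at chr3:106147554-106167564, 33.9 kb apart on chromosome 3. On the same chromosome S100a8 and S100a9 are separated by 22.6 kb, and Lyz2 and Lyz1 lie 5.5 kb apart on chromosome 10. The stretches upstream of Chil4 and Chil3 are shown because these sister genes, alike in sequence, gave unlike values on the arrays. Both come from RefSeq on the minus strand and fall within the 250 bases before each gene's start, Chil4 at chr3:106219508-106219729 and Chil3 at chr3:106167565-106167786. Capitals mark the 21 bases of each stretch that differ from the other gene or have no counterpart there.
Chil4: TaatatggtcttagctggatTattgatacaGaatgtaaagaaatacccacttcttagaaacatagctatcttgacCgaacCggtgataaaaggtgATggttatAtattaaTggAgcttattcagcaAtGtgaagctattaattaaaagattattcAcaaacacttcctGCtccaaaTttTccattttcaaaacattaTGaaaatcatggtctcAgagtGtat
Chil3: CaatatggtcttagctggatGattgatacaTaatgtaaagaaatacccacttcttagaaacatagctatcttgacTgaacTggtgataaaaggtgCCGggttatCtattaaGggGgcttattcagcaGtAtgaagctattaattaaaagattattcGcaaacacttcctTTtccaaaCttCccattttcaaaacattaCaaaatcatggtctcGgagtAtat
Of 221 aligned bases 201 were identical, or 91%. Lyz1 and Lyz2 shared 80.6% over 248 aligned bases. The other 43 pairs of members shared between 50.2% and 62.3%. The sequences of the array's probes were not used here, so how far a Chil3 probe set also reads Chil4 RNA, or a Lyz1 probe set reads Lyz2 RNA, was not tested.

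All values are log2 levels, 1 unit being a doubling. Array medians lay between 7.21 and 7.30, and arrays correlated at 0.965 to 0.978 within groups and 0.963 to 0.977 between groups. The limma fit covered the 32615 probe sets with a mean level above 5, and a change was called at a Benjamini-Hochberg adjusted p under 0.05. Every member passed that level. The probe set of H2be itself differed by -0.26 between H2be-KO and WT on the open side and by -0.27 on the closed side, with adjusted p of 0.641 and 0.999. Its 6 H2be-KO arrays read 11.31 to 11.46, against 11.55 to 11.75 on the 6 WT arrays. Where this probe set lies relative to the replaced coding sequence was not examined, so these values do not check the labels. Omp, the marker protein of mature olfactory neurons, read 12.53 to 12.71 on all 12 arrays.

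Chil4 fell sharply on the closed side of both genotypes. In H2be-KO mice its log2 level was 5.67, 8.85 and 6.17 on the closed side, against 11.42, 10.55 and 10.06 on the open side. In WT mice it was 5.26, 5.42 and 5.85 on the closed side, against 10.92, 9.14 and 8.63 on the open side. Closed and open samples did not overlap in either genotype. All closed samples but the second of H2be-KO stood between 5.26 and 6.17, just above the level of 5 at which probe sets were left out, and that second one stood higher than the lowest WT open sample. The files hold no detection calls, so whether the lowest of these closed samples lay above background is not known, and the change is given on the log2 scale and not as a fold. On the closed side Chil4 fell by 3.78 in H2be-KO mice (standard error 0.76, interval -5.44 to -2.12, limma adjusted p = 0.0392). In WT mice Chil4 fell by 4.06 (standard error 0.76, interval -5.72 to -2.39, limma adjusted p = 0.0335). Over both genotypes the change was -3.92 (standard error 0.54, adjusted p = 0.00181).

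The Chil4 calls within a genotype stood close to the threshold. Over all arrays left out in turn, the change ran from -4.75 to -3.16 in H2be-KO mice and from -4.52 to -3.38 in WT mice. The H2be-KO call was lost without any 1 of 9 arrays, with an adjusted p of up to 0.184. These were the open replicates 1, 2 and 3 and the closed replicates 1 and 3 of H2be-KO, the open replicate 2 of WT and the closed replicates 1, 2 and 3 of WT. The WT call was lost without any 1 of 8 arrays, with an adjusted p of up to 0.132. These were all 6 WT arrays and the open replicates 2 and 3 of H2be-KO. Both calls were also lost with no filter on low values, with trend and robust moderation and with only the arrays of the groups compared, at adjusted p of 0.0651, 0.111 and 0.134 in H2be-KO mice and 0.0544, 0.0868 and 0.0564 in WT mice. Over both genotypes the call held without any single array, with changes of -4.40 to -3.58 and an adjusted p of at most 0.00717.

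For Chil3, the sister gene, the differences between sides were smaller. Its log2 level was 6.25, 6.53 and 6.01 on the H2be-KO closed side and 7.43, 6.996 and 6.98 on the H2be-KO open side. On the WT closed side it was 6.34, 6.68 and 6.34, against 6.79, 6.97 and 6.13 on the WT open side. The sides were apart in H2be-KO mice and overlapped in WT mice, where the lowest of the 6 samples was on the open side. The closed side differed by -0.87 in H2be-KO mice (standard error 0.22, adjusted p = 0.112) and by -0.18 in WT mice (adjusted p = 0.914), neither of which passed the test. Without the WT open replicate 3, the sample that read 6.13, the H2be-KO difference was called at an adjusted p of 0.0425. Over both genotypes the difference was -0.53 at an adjusted p of 0.115, and its adjusted p was 0.0258 without that sample. With trend and robust moderation Chil3 was called in H2be-KO mice (adjusted p = 0.0113) and over both genotypes (adjusted p = 0.0238), and with array weights in H2be-KO mice (adjusted p = 0.0381).

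Chil1, a chitinase-like gene on chromosome 1 known from inflamed epithelium and macrophages, read 7.68, 7.57 and 7.88 on the H2be-KO closed side, against 8.42, 8.19 and 9.13 on the H2be-KO open side. In WT mice it read 8.34, 7.47 and 7.38 on the closed side, against 8.53, 7.39 and 8.30 on the open side. The H2be-KO sides did not overlap, whereas both WT sides held high and low samples. The differences of -0.87 in H2be-KO mice (adjusted p = 0.357) and -0.34 in WT mice (adjusted p = 0.871) did not pass the test. The WT difference was -0.11 without WT open replicate 1 and -0.68 without WT open replicate 2. The 6 other genes of the chitinase family that were measured, among them the acidic chitinase gene Chia1, gave no call in either genotype. Their changes ran from -0.42 to 0.11 in H2be-KO mice and from -0.37 to -0.0015 in WT mice.

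Lcn2 was the second member to fall, by a smaller amount and with a tighter spread. Its log2 level was 9.14, 9.08 and 8.91 on the H2be-KO closed side, against 9.99, 9.95 and 9.82 on the H2be-KO open side. On the WT closed side it was 9.04, 8.99 and 8.84, against 9.85, 9.11 and 9.54 on the WT open side. The sides did not overlap in either genotype, and WT open replicate 2 stood next to the closed samples. Lcn2 fell 1.84-fold on the closed side of H2be-KO mice, with a 95% interval of 1.46 to 2.33 (limma adjusted p = 0.0218). In WT mice the closed side differed by -0.54 (interval -0.88 to -0.20, adjusted p = 0.193), which did not pass the test, and without WT open replicate 2 it differed by -0.74 at an adjusted p of 0.0287. Over both genotypes Lcn2 fell 1.64-fold (adjusted p = 0.00385), a call kept when any 1 array was left out, at an adjusted p of at most 0.015. The H2be-KO call was lost without any 1 of the 6 H2be-KO arrays, with an adjusted p of up to 0.11.

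Other parts of the lipocalin and iron system gave 1 call. Slc22a17, a cell-surface receptor for Lcn2, read 10.14, 10.10 and 10.09 on the H2be-KO closed side, against 10.27, 10.33 and 10.38 on the H2be-KO open side. In WT mice it read 10.07, 9.94 and 10.09 on the closed side, against 10.31, 10.23 and 10.45 on the open side. Over both genotypes Slc22a17 fell by 0.26 on the log2 scale on the closed side (adjusted p = 0.0482), and the 11 others of 12 listed lipocalin and iron genes gave no call there. Of all probe sets 1.23% fell in that comparison.

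Ltf gave no call and varied among samples of 1 group. Its log2 level was 11.33, 10.95 and 11.33 on the H2be-KO closed side, against 11.57, 10.63 and 11.40 on the H2be-KO open side. On the WT closed side it was 11.75, 10.63 and 10.38, against 11.46, 10.74 and 11.87 on the WT open side. All groups overlapped, and replicate 2 was the lowest sample of every group but the WT closed side, where replicate 3 was lower still. The closed side differed by 0.0015 in H2be-KO mice (interval -0.81 to 0.82) and by -0.44 in WT mice (interval -1.25 to 0.38). Muc5ac, a gel-forming mucin gene noticed after its values were seen, had its lowest sample in each group where Ltf did. It read 7.90, 4.97 and 7.17 on the H2be-KO closed side and 8.11, 5.64 and 8.35 on the H2be-KO open side, then 8.61, 6.54 and 4.54 on the WT closed side and 9.61, 5.23 and 8.32 on the WT open side.

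The calprotectin genes gave no call. S100a8 read 7.61, 7.54 and 7.60 on the H2be-KO closed side, against 7.59, 7.16 and 7.94 on the H2be-KO open side. In WT mice it read 7.60, 8.13 and 7.98 on the closed side, against 6.98, 8.02 and 7.30 on the open side. The H2be-KO closed samples were nearly alike. Both open groups spread around them, and the WT closed samples stood at 7.60 to 8.13. S100a8 differed by 0.02 between sides in H2be-KO mice (interval -0.54 to 0.58) and by 0.47 in WT mice (interval -0.09 to 1.03, adjusted p = 0.648). Its partner S100a9 ran between 6.97 and 7.27 on the H2be-KO closed side and between 6.74 and 7.47 on the H2be-KO open side. On the WT closed side S100a9 ran between 7.12 and 7.58, against 6.52 and 7.50 on the WT open side. Differences between sides for S100a9 were 0.12 in H2be-KO mice and 0.25 in WT mice, and neither was called.

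Among 13 further genes listed with calprotectin, all S100 genes but S100pbp and without S100a5, S100a3 fell on the closed side of both genotypes. S100a3, a zinc-binding protein known from hair cuticle, read 5.36, 5.80 and 5.32 on the H2be-KO closed side, against 6.91, 6.76 and 6.77 on the H2be-KO open side. In WT mice S100a3 read 6.13, 5.53 and 5.77 on the closed side, against 6.81, 6.55 and 6.78 on the open side. The change was -1.32 in H2be-KO mice (adjusted p = 0.00234) and -0.91 in WT mice (adjusted p = 0.0265). Over both genotypes S100a6 fell by 0.34 on the log2 scale (adjusted p = 0.0141) and S100a13 rose by 0.25 (adjusted p = 0.0434), and the other 10 of the 13 gave no call beside S100a3. Of all probe sets 1.23% fell in that comparison, and the share that rose is not given here.

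The members that attack bacterial cell walls had the smallest SDs of the 10 over all 12 arrays, though within groups Lcn2 (SD 0.2045) was as tight as Lyz2 (SD 0.2076). Lyz1 ran between 8.26 and 8.43 on the H2be-KO closed side and between 8.23 and 8.54 on the H2be-KO open side. On the WT closed side Lyz1 ran between 8.28 and 8.66, against 8.10 and 8.36 on the WT open side. Lyz1 differed by -0.05 between sides in H2be-KO mice (interval -0.32 to 0.22) and by 0.25 in WT mice (interval -0.02 to 0.52). Lyz2, the lysozyme of macrophages, stood at 9.72 to 9.99 on the H2be-KO closed side and 9.54 to 10.06 on the H2be-KO open side. On the WT closed side Lyz2 stood at 9.77 to 10.22, against 9.70 to 9.82 on the WT open side. Reg3g stood at 12.01 to 12.21 on the H2be-KO closed side, 12.00 to 12.33 on the H2be-KO open side, 12.05 to 12.30 on the WT closed side and 12.05 to 12.36 on the WT open side. For Lyz2 and Reg3g every 95% interval of a difference between sides lay within -0.39 and 0.51.

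**Figure D1:**
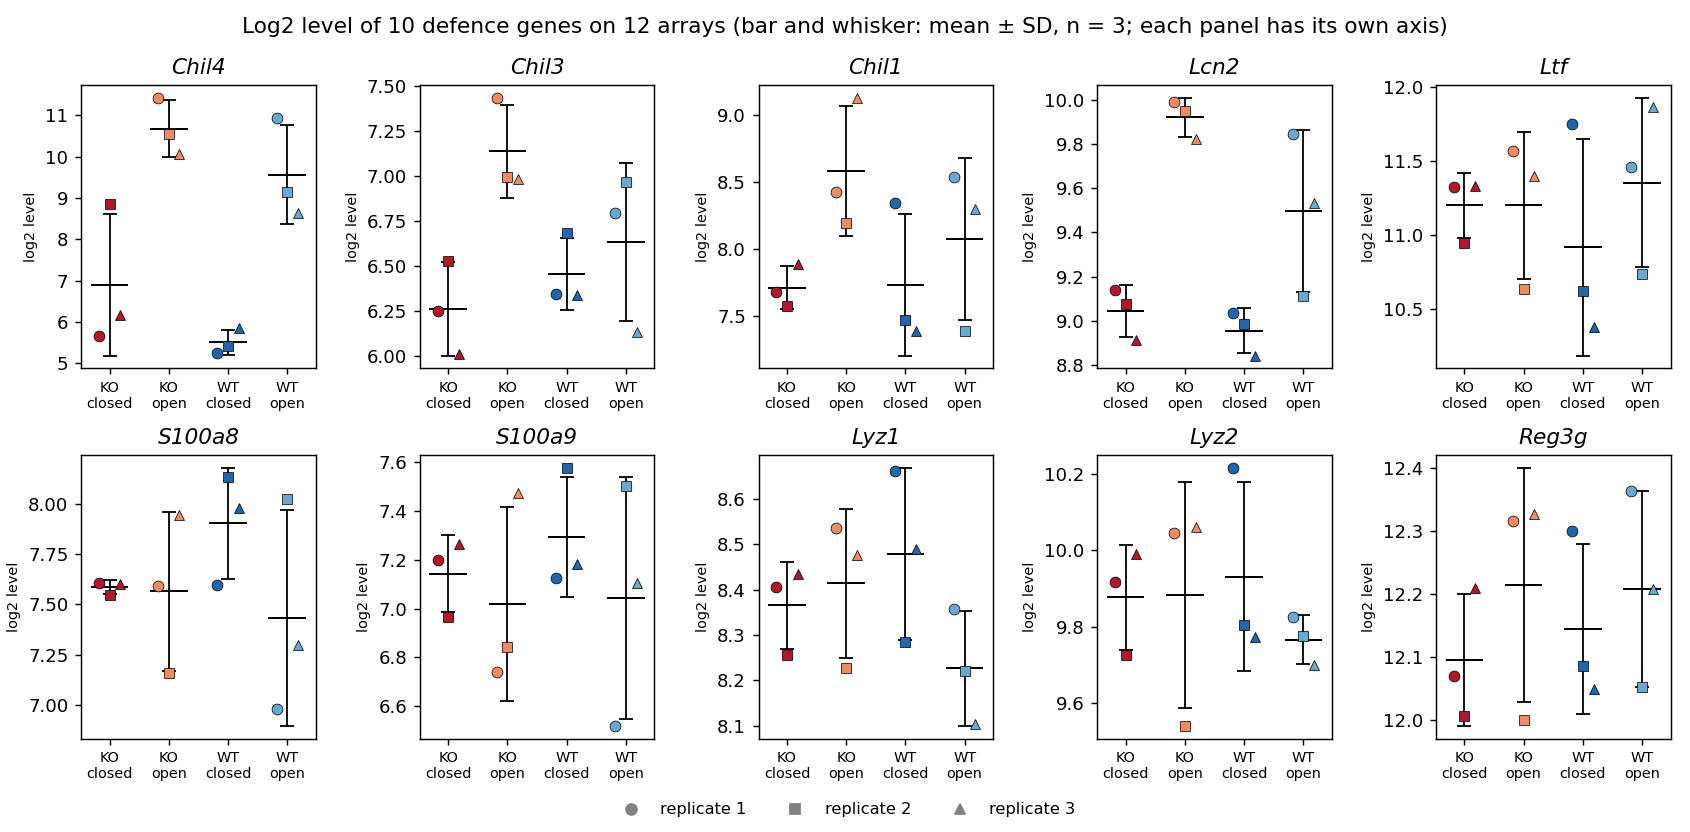
Log2 level (vertical axis, a separate range in each panel) of the 10 genes in the closed and open samples of H2be-KO and WT mice, with points for samples, marker shapes for replicate numbers, and a bar and whisker for the mean ± SD of 3. The closed samples of Chil4 and Lcn2 sit below the open samples of their genotype, while Reg3g stays between 12.00 and 12.36 throughout.

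Counted over the 10 members, 2 fell and none rose on the closed side in H2be-KO mice, where 0.34% of all probe sets fell. In WT mice 1 fell and none rose, where 0.38% of all probe sets fell. Over both genotypes 2 fell and none rose, beside 1.23% of all probe sets. In H2be-KO mice 4 members, Chil1, Chil3, Chil4 and Lcn2, had every closed sample below every open sample, beside 6.71% of all probe sets, and in WT mice 2 did, Chil4 and Lcn2, beside 7.05%. The median member changed by -0.08 in H2be-KO mice and by -0.12 in WT mice, beside 0.02 and -0.01 over all probe sets. The members were chosen with results of these arrays known, so these counts describe them and carry no test of their own.

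**Figure D2:**
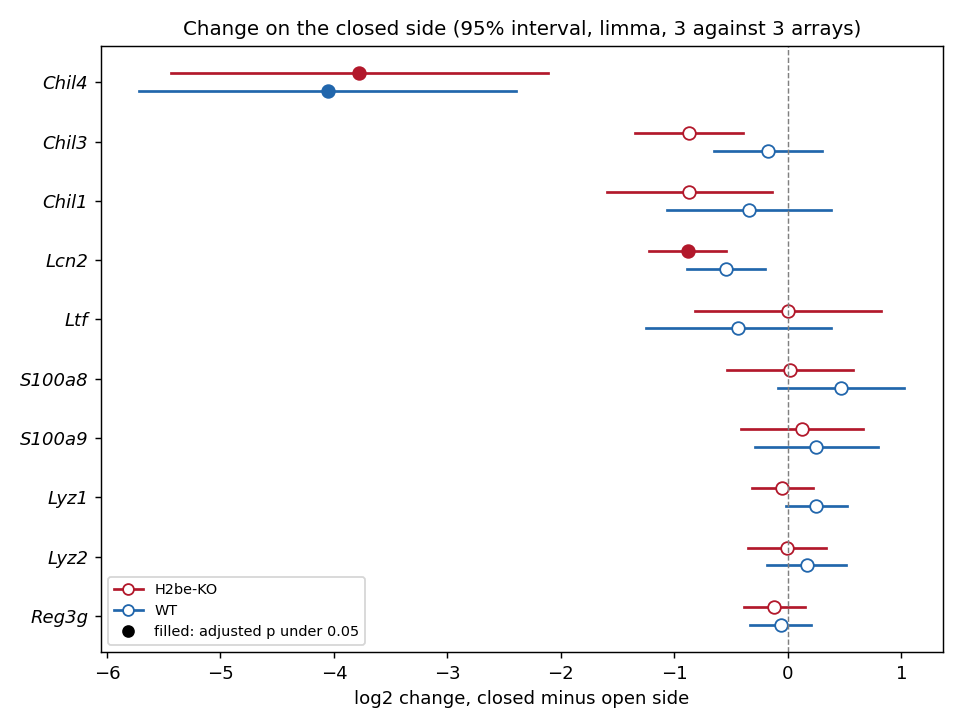
Log2 change on the closed side relative to the open side (horizontal axis) for each gene, H2be-KO above WT. The 95% intervals compare 3 with 3 arrays and come from 1 limma fit to all 12 arrays, which share 1 estimate of the spread. Filled points mark an adjusted p under 0.05. Chil4 changed by -3.78 in H2be-KO and -4.06 in WT, Lcn2 was called in H2be-KO alone of the single genotypes, and the remaining points lie between -0.87 and 0.47.

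No member was called between H2be-KO and WT on either side. On the open side 0 of 10 were called, beside 0.0215% of all probe sets in either direction. At an unadjusted p under 0.05 there were 2 of 10, Lcn2 and Chil3, beside 2175 of all 32615 probe sets. Lcn2 averaged 9.92 ± 0.09 in H2be-KO mice and 9.50 ± 0.37 in WT mice on that side (SD, n = 3 each), a difference of 0.43 with an interval of 0.08 to 0.77 and a limma adjusted p of 0.694. Leaving out 1 array moved it between 0.23, without WT open replicate 2, and 0.60, without WT open replicate 1. Chil3 averaged 7.14 ± 0.26 in H2be-KO mice and 6.63 ± 0.44 in WT mice (SD, n = 3 each), and all 3 H2be-KO samples were above all 3 WT samples (limma adjusted p = 0.718). Their difference of 0.50 was 0.26 without WT open replicate 3, the lowest value that leaving out 1 array gave. It was the only member set apart in that direction, beside 4.02% of all probe sets. Chil4 averaged 10.68 ± 0.69 in H2be-KO mice and 9.56 ± 1.20 in WT mice (SD, n = 3 each), a difference of 1.11 with an interval of -0.55 to 2.77 that leaves a difference of either direction possible. It was 0.65 without WT open replicate 3 and 1.79 without WT open replicate 1.

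On the closed side 0 of 10 were called, beside 0.0245% of all probe sets. None of the 10 had an unadjusted p under 0.05, beside 1391 of all 32615 probe sets. Chil4 averaged 6.90 ± 1.71 in H2be-KO mice and 5.51 ± 0.30 in WT mice (SD, n = 3 each). Their difference of 1.39 had an interval of -0.27 to 3.05, and it was 0.42 without H2be-KO closed replicate 2, the sample that read 8.85. For Chil1, Chil3 and Lcn2 the closed-side differences were -0.02, -0.19 and 0.09.

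Whether the change between sides itself depended on genotype was asked with an interaction term. It was called for 0 of 10 members and for 0% of all probe sets. At an unadjusted p under 0.05 there was 1 of 10 members, beside 1309 of all 32615 probe sets. That member was Chil3, whose change was different in H2be-KO and WT by -0.70 (standard error 0.31, interval -1.37 to -0.03, adjusted p = 1). For Chil4 the change differed by 0.28 with an interval of -2.07 to 2.63, and for Lcn2 by -0.34 with an interval of -0.82 to 0.14. The Lcn2 change was called in H2be-KO and not in WT, and a difference between those changes was not shown.

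**Figure D3:**
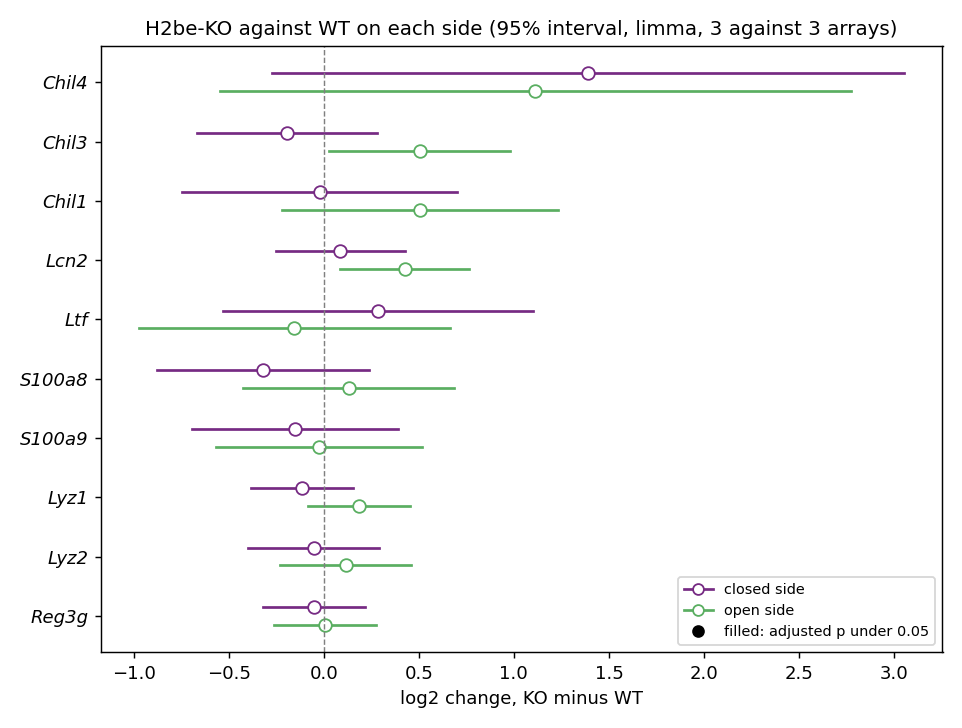
Log2 difference of H2be-KO from WT (horizontal axis) for each gene on the closed and the open side, with 95% intervals from limma over 3 against 3 arrays. No point is filled, since no adjusted p was under 0.05, and the widest intervals belong to Chil4, from -0.27 to 3.05 on the closed side.

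The spread over the 12 arrays, for which the list was drawn up, was wide for 7 of the 10. Chil4 had an SD of 2.35, larger than nearly every other probe set, against a median SD of 0.179. Chil1, Ltf, Lcn2 and Chil3 had SDs of 0.55, 0.49, 0.44 and 0.43, larger than 98.6%, 97.9%, 97% and 96.6% of probe sets. S100a8 and S100a9 followed with 0.36 and 0.32, whereas Lyz2, Lyz1 and Reg3g had 0.19, 0.16 and 0.14, close to the median or below it. Once group means were taken out, Ltf kept its spread, with an SD of 0.54 larger than 98.5% of probe sets, and Lcn2 did not, with 0.20, larger than 65.5%. Chil4 kept an SD of 1.11 within groups.

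Markers of the cells that make these proteins were read beside the members. Of 17 neutrophil and granule genes measured, Lcn2 was the only one called between sides in H2be-KO mice, and none was in WT mice. The mean level of that list, members left out, ran from 6.59 to 6.77 on the H2be-KO closed side and 6.45 to 6.77 on the H2be-KO open side. It ran from 6.67 to 6.89 on the WT closed side and from 6.39 to 6.91 on the WT open side. The defining neutrophil gene Ly6g stood at 4.41 to 5.56 over the 12 arrays, around the level of 5. Macrophage genes gave no call among 14, and their mean level stood at 7.22 to 7.34 on the H2be-KO closed side, 7.07 to 7.52 on the H2be-KO open side, 7.25 to 7.46 on the WT closed side and 7.31 to 7.42 on the WT open side.

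Secretory and gland genes gave no call among 18 in either genotype. Their mean level ran from 8.75 to 9.05 on the H2be-KO closed side and 8.73 to 9.08 on the H2be-KO open side, and from 8.67 to 9.10 on the WT closed side and 8.81 to 9.11 on the WT open side. Scgb1a1, the club cell secretoglobin, lay at or below the level of 5. None of the 10 ciliated cell genes was called, and their median change was 0.16 in H2be-KO mice and 0.16 in WT mice. The 9 bone and cartilage genes also gave no call within a genotype, with differences from 0.06 to 0.46 in H2be-KO mice and from 0.02 to 0.20 in WT mice, all of them above 0. The 3 red blood cell genes differed by 0.04 to 0.12 in H2be-KO mice and by 0.22 to 0.58 in WT mice without a call. Sustentacular cell and Bowman gland genes, 8 in number, had median changes of -0.06 in H2be-KO mice and -0.06 in WT mice, and lymphocyte genes (9) and eosinophil and mast cell genes (8) gave no call. Of 9 basal cell genes Neurod1, a transcription factor of neuronal precursors, fell by 0.27 on the log2 scale over both genotypes (adjusted p = 0.0429), beside 1.23% of all probe sets.

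Among the marker lists, calls within a genotype beside Lcn2 came from mature neuron genes. The mean level of that list was 11.50 to 11.52 on the H2be-KO closed side, against 11.24 to 11.33 on the H2be-KO open side, and 11.42 to 11.51 on the WT closed side, against 11.27 to 11.29 on the WT open side. On the closed side of H2be-KO mice 3 of 12 rose, the channel subunits Cnga4 by 0.42 (adjusted p = 0.025) and Cngb1 by 0.43 (adjusted p = 0.0254) and the chloride channel gene Ano2 by 0.38 (adjusted p = 0.0463). In WT mice Cnga4 rose by 0.37 (adjusted p = 0.0487). Over both genotypes 9 of the 12 rose, these 3 and Cnga2, Gnal, Adcy3, Rtp1, Stoml3 and Umodl1, by 0.23 to 0.40. The share of all probe sets that rose is not given here, so these counts have no background beside them. The vesicular glutamate transporter gene Slc17a6 fell by 0.36 (adjusted p = 0.00389). The part of these marker shifts in the Chil4 and Lcn2 values was not tested. In whole tissue, fewer cells that make a protein and less RNA in each of them cannot be told apart.

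Other defence genes gave no call between sides, where 0.34% of all probe sets fell in H2be-KO mice and 0.38% in WT mice. None of 37 further genes listed as antimicrobial, the mucin gene Muc5ac among them, was called in either genotype. Their changes ran from -0.68 to 0.55 in H2be-KO mice and from -1.16 to 0.46 in WT mice, the lowest in each being that of Muc5ac. None of 26 genes of the interleukin-17 and interleukin-1 response, 21 of the type 2 response and 21 of pattern receptors and their signalling was called. Clca1, a mucus protein of goblet cells, is named as the type 2 gene with the lowest WT difference. It read 8.51 in WT open replicate 1 and at most 6.06 in the other samples. Its WT difference of -1.28 had a limma adjusted p of 0.46. WT open replicate 1 was also the WT sample with the highest Chil4 (10.92). H2be-KO open replicate 1, where Clca1 was at most 6.06, had a Chil4 of 11.42. A link between these genes was not tested.

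For each member the most similar patterns over the 12 arrays were sought among 19380 other genes. Such likeness is a description over 12 arrays, and these arrays share their side and genotype groups. It takes the highest of 19380 r values, and how high such a pick runs among unrelated genes was not tested. For Lcn2 the closest gene was Serpina3n, an acute-phase protease inhibitor (Pearson r = 0.942, Spearman rho = 0.832), followed by the odorant receptor gene Olfr907 (r = 0.935). These correlations were 0.753 and 0.908 once group means were taken out. Serpina3n also ran like Chil4 (r = 0.901). Serpina3n read 9.81, 10.10 and 10.001 on the H2be-KO closed side, against 10.70, 10.77 and 10.52 on the H2be-KO open side. It read 10.06, 9.69 and 9.83 on the WT closed side, against 10.74, 10.07 and 10.47 on the WT open side. Serpina3n was lower by 0.63 on the log2 scale on the closed side over both genotypes. It was picked for running like Lcn2, which fell on that side, so this is a description and not a test. WT open replicate 2, the sample in which Lcn2 was low, was again the lowest of the open samples.

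Chil4 ran most like Fam241a (r = 0.934) and Insm1, a transcription factor of newly forming neurons (r = 0.918), and these correlations were 0.576 and 0.32 once group means were taken out. Insm1 and Fam241a were lower on the closed side over both genotypes by 0.30 and 0.28 on the log2 scale. Both were picked for running like Chil4, which fell on that side, so these values too are a description and not a test. Chil3 was nearest to Myl12b (r = 0.868) and Fanci (r = 0.848), and Chil1 to Anxa1 (r = 0.915) and Psmd1 (r = 0.912). Among the members, Chil3 and Chil4 correlated at 0.743 and Chil4 and Lcn2 at 0.874, the second of which was 0.384 within groups.

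Ltf ran most like Pglyrp1, a peptidoglycan-binding protein of neutrophils and epithelium, at r = 0.968, and the value was 0.984 once group means were taken out. Pglyrp1 read 9.46, 9.07 and 9.21 on the H2be-KO closed side and 10.01, 8.84 and 9.57 on the H2be-KO open side. It read 9.75, 8.55 and 8.35 on the WT closed side and 9.68, 8.79 and 10.05 on the WT open side, with the same samples low as for Ltf, and the second nearest gene was Cck (r = 0.953). S100a8 ran most like Drd3, a dopamine receptor gene (r = 0.932), and then like Ngp, a granule protein of neutrophils (r = 0.928). Ngp read 6.998, 8.78 and 7.77 on the WT open side, where S100a8 was also lowest in the first and highest in the second. The nearest genes of S100a9 were Acsbg2 (r = 0.905) and Ngp (r = 0.893). Those of Lyz1 were Olfr1338 (r = 0.885) and Fuom (r = 0.883), those of Lyz2 were Capn2 (r = 0.926) and Anxa8 (r = 0.917), and those of Reg3g were Ap3m1 (r = 0.938) and Cd164 (r = 0.927). S100a8 and S100a9 correlated at 0.851 and Lyz1 and Lyz2 at 0.847.

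**Figure D4:**
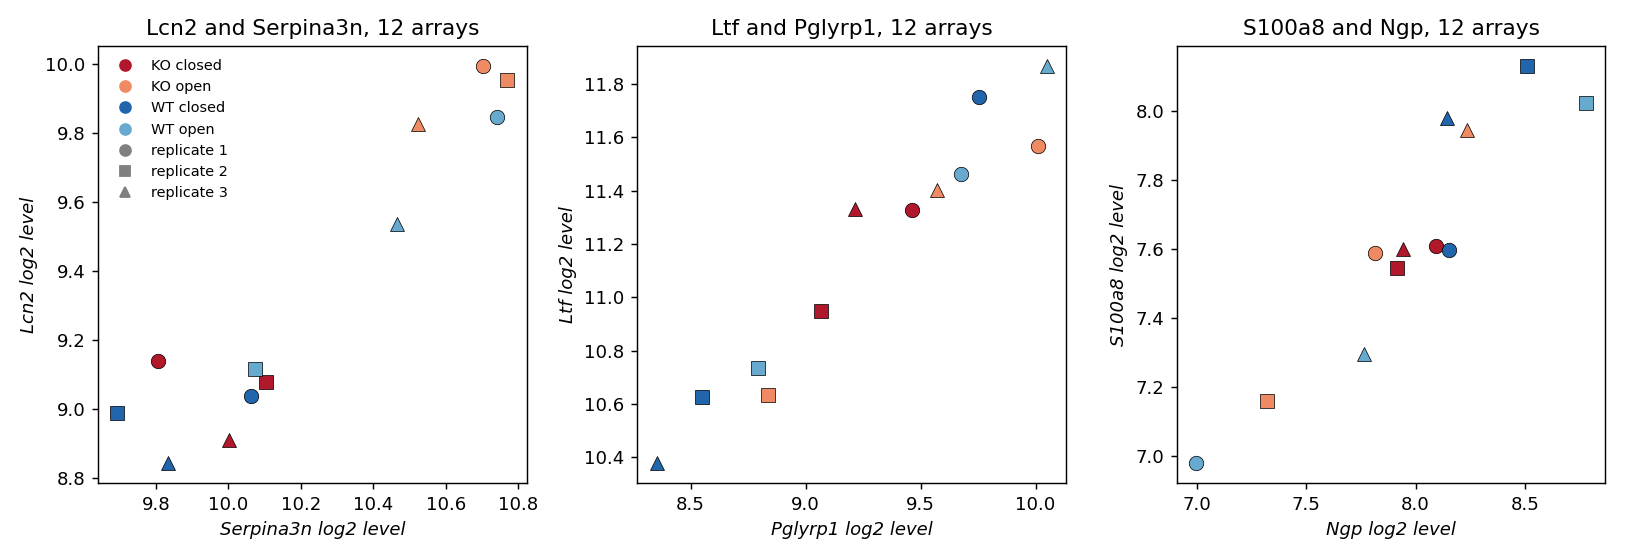
Log2 levels of Lcn2 against Serpina3n, Ltf against Pglyrp1 and S100a8 against Ngp, 1 point for each of the 12 arrays, coloured by group and shaped by replicate number. For Lcn2 all closed samples lie at or below 9.14 with WT open replicate 2 among them, whereas for Ltf and S100a8 the groups are mixed along the axes.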

How the data were processed

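RNA from olfactory epithelium was labelled and hybridised to Affymetrix whole-transcript mouse arrays. The authors summarised probe sets with iterative PLIER and sketch-quantile normalisation in Affymetrix Expression Console, and the deposited values are log2 levels, with no detection calls. Depth does not apply to arrays, and their number, 3 per group, limits the precision. The log2 values were used as deposited. Probe sets with a mean above 5 over the 12 arrays were kept, 32615 of 35556. One mean per group was fitted with limma 3.58.1 in R 4.3.3 and 6 contrasts were tested two-sided, with Benjamini-Hochberg adjustment over all probe sets kept. No column was left without a sample. Of the probe sets, 21789 name 1 gene, 1621 several and 12146 none, and a member was read from the probe set naming it alone with the highest mean. The fit was tested on simulated data. The members and gene lists were chosen with earlier results of these data known. All 10 members are given in every comparison, with list genes that were called, at most 4 others of the highest mean level in a list, and the 2 genes of highest r for a member, exceptions being named. Since the labels do not say whether pools share mice, p-values measure the spread between these samples. Alternatives were the filter, the scaling, array weights, trend and robust moderation, the samples in the fit, the replicate number as a block and leaving out each array. Sequences were aligned with Biopython 1.88.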

Additional observations from a re-analysis of the deposited data

How the results depend on the processing

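The falls of Chil4 and Lcn2 over both genotypes kept their direction and their call under all 8 settings that used every array, with adjusted p of at most 0.0225 and 0.018. Within a genotype the counts were less steady. The H2be-KO count of 2 was 1 with no filter on low values and with only the arrays of the groups compared, where Chil4 had adjusted p of 0.0651 and 0.134, and 0 with the replicate block. The WT count of 1 was 0 with no filter, with trend and robust moderation, with only the arrays of the groups compared and with the replicate block. Under these settings the adjusted p of Chil4 in WT was 0.0544, 0.0868, 0.0564 and 0.123. Chil3 joined the calls in H2be-KO with trend and robust moderation (adjusted p = 0.0113), where Chil4 left them (0.111), and with array weights (0.0381). It also joined those over both genotypes with trend and robust moderation (0.0238), for a count of 3. When 1 array was left out, the count ranged from 0 to 3 in H2be-KO, from 0 to 1 in WT and from 2 to 3 over both genotypes, and stayed at 0 for the remaining comparisons. Why these calls move was not tested.

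The replicate number was not taken to pair samples, since the labels do not say that it does. Deviations of same-numbered closed and open samples correlated at 0.053, 0.233 and 0.026 in H2be-KO and at -0.009, 0.169 and 0.019 in WT. Those of different-numbered samples correlated at -0.186 to 0.127 in H2be-KO and at -0.106 to 0.074 in WT. These values do not exclude pairing. With the number as a replicate block (consensus correlation 0.162), 0 members were called in H2be-KO (Chil4 at an adjusted p of 0.142 and Lcn2 at 0.064) and 0 in WT, and 2 over both genotypes.

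Small differences changed sign. The H2be-KO side difference of Ltf was -0.073 with array weights and -0.025 with median centring, and that of S100a8 -0.0069 with median centring. The closed-side genotype difference of Chil1 was 0.042 with array weights, and the open-side one of S100a9 was 0.027 with quantile normalisation and 0.026 with median centring. Leaving out 1 array moved the H2be-KO side difference between -0.28 and 0.18 for Ltf, -0.14 and 0.013 for Lyz1, -0.18 and 0.084 for Lyz2, -0.18 and 0.21 for S100a8 and -0.015 and 0.35 for S100a9. The WT side difference moved between -0.14 and 0.014 for Reg3g and -0.0105 and 0.48 for S100a9, and that over both genotypes between -0.0055 and 0.12 for Lyz2. Open-side genotype differences moved between -0.46 and 0.13 for Ltf, -0.072 and 0.11 for Reg3g, -0.095 and 0.43 for S100a8 and -0.29 and 0.21 for S100a9. Closed-side ones moved between -0.20 and 0.28 for Chil1, -0.13 and 0.089 for Lyz2 and -0.11 and 0.028 for Reg3g. The interaction moved between -0.70 and 0.89 for Chil4, -0.16 and 0.022 for Reg3g and -0.36 and 0.14 for S100a9. Taking the mean over probe sets changed nothing, as each member has 1. A level of 7 left out Chil3.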
